A study of Mus musculus with 6 samples.

Results

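The genes described here are 44 antioxidant and glutathione genes, taken as the members of a list of symbols, out of 24129 gene names in a table of normalised RNA sequencing counts. They comprise the transcription factor Nfe2l2 (the gene for NRF2) with its inhibitor and targets, the enzymes that make, recycle and use glutathione, the thioredoxins and peroxiredoxins, the superoxide dismutases with catalase, the enzymes that supply NADPH and the metallothioneins. The comparison was between T1 and T2 cells, a pair of tumor cell populations with 3 replicates each, and the question was which of these genes differed in expression between them. Both populations came from 4T1 cells, a mammary carcinoma line of the BALB/c mouse, which had been tagged with GFP, grown as a tumor in the mammary fat pad, dissociated and sorted. Tumor cells that overgrew a culture of sorted cancer associated fibroblasts were sorted again by GFP. T1 cells (labelled 4T1A) had low GFP and grew attached with an epithelial shape, and T2 cells (labelled 4T1NA) were round, loosely attached and high in GFP. Both were kept in the same DMEM/F-12 medium with serum, but T2 cells were passaged without trypsin, so culture form and population cannot be told apart. The parental 4T1GFP cells were not analysed here. The study's methods describe its experiments in general as using biological replicates, without saying how the RNA replicates of one population were separated (by culture, passage or extraction), so the p-values measure only the spread between these samples.

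Cells meet superoxide and hydrogen peroxide as by-products of respiration and oxidative folding. Superoxide dismutases turn superoxide into hydrogen peroxide, which catalase, glutathione peroxidases and peroxiredoxins then remove. Most of the peroxidases and peroxiredoxins draw on glutathione or thioredoxin, which are themselves regenerated with NADPH. The protein KEAP1 holds NRF2 at a low level until electrophiles or oxidants modify it, after which NRF2 binds antioxidant response elements near genes for NADPH supply, glutathione synthesis and detoxification. In mammary carcinoma this system is known for its part in tolerance of oxidative stress and drugs.

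The libraries held 18133227 to 20839686 reads on genes, and replicates differed by more than sampling noise (chi-square of 7.96 to 25.003, each over its degrees of freedom). The epithelial keratins Krt8 and Krt18 had 17357 to 25833 normalised counts in every library. Epcam and Cdh1, which also mark epithelial cells, averaged 3141 ± 314 and 14748 ± 908 normalised counts over the T1 libraries but 34.7 ± 3.49 and 465 ± 16.2 over the T2 libraries (SD, n = 3 each). Of the fibroblast markers, Col1a1 had 14.8 to 27.9 normalised counts in T1 libraries and at most 0.98 in T2 libraries. Col1a2 had 4.23 to 11.7 in T1 libraries and Dcn at most 3.9, and both were at 0 in T2 libraries. Col3a1 and Lum were at 0 in all 6. The leukocyte marker Ptprc was at 0 in T1 libraries and had 4.9, 6.14 and 2.78 normalised counts in T2 libraries. Coro1a, the highest leukocyte marker, reached 12.1 in T2 replicate 3 and 4.65 in T1 replicate 2. Laptm5 reached 1.86 in T1 replicate 2 and was at 0 in T2 libraries. The highest endothelial marker reached 4.64, with Tyrobp and Kdr at 0. The part of the Epcam and Cdh1 difference and of the few fibroblast and leukocyte reads in the results below was not tested.

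Most of the measured antioxidant genes differed between the populations, and more were lower than higher in T1 cells. The glutathione transferases, glutathione peroxidases, metallothioneins and several NRF2 genes made up most of those that were lower, while Sod2, Prdx3, Txn2, catalase, glutathione reductase and the NRF2 targets Hmox1 and Osgin1 were higher. Of the 44 genes, 41 reached a mean of 10 normalised counts over the 6 samples and entered the test. Gpx2 and Gpx7 had 0 reads in every library, where a count of 0 allows up to 3 reads, and Gpx3 had 2 to 11 reads. At an adjusted p-value under 0.01 (limma on log2(normalised count + 1), Benjamini-Hochberg over all 11514 genes tested), 31 of the 41 differed (75.6%), against 49.5% of all genes tested. Of these, 20 were lower in T1 cells, against 24.4% of all genes, and 11 were higher, against 25.1% of all genes. The median log2 fold change of the 41 genes, T1 over T2, was -0.27, and that of all genes tested was -0.0055. The antioxidant genes also drew more reads than most genes, with a median of 2015 normalised counts against 694. Among genes with a mean of at least 1000 normalised counts, a limit chosen after the values were seen, 22 of 28 antioxidant genes differed (78.57%), against 54.7% of all such genes. The antioxidant genes were chosen with earlier results of these data known, and the part of that choice in these shares was not tested. Of the 50 other genes of the same pathways tested, 52% differed. In bulk RNA, fewer cells of a type and less RNA per cell cannot be told apart.

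With a log2 fold change beyond 1 as well, 12 antioxidant genes were lower in T1 cells, where 10.8% of all genes tested passed, and 3 were higher, where 9.46% passed. The study's own filter asks for a log2 fold change beyond 2, and Mgst2 and Gstm1 passed it, both lower in T1 cells, against 8.37% of all genes in either direction. Without T1 replicate 1, T1 replicate 3 or T2 replicate 2, 4 genes passed it. The 3 values of one population lay entirely on one side of the 3 of the other for 33 of the 41 genes, against 68.1% of all genes tested. Summed over the 44 genes, the libraries had 120757 ± 4387 normalised counts for T1 and 135597 ± 3077 for T2 (SD, n = 3 each). This sum is not scaled by length and gives most weight to genes with many reads. Means for T1 and T2 were 8213 and 15830 for Sqstm1, and 4990 and 9207 for Gpx1. Pgd went the other way, with 8321 and 5088. Without T2 replicate 2, which stood apart for Hmox1 and Osgin1 as described below, 17 genes were lower and 10 higher.

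**Figure D1:**
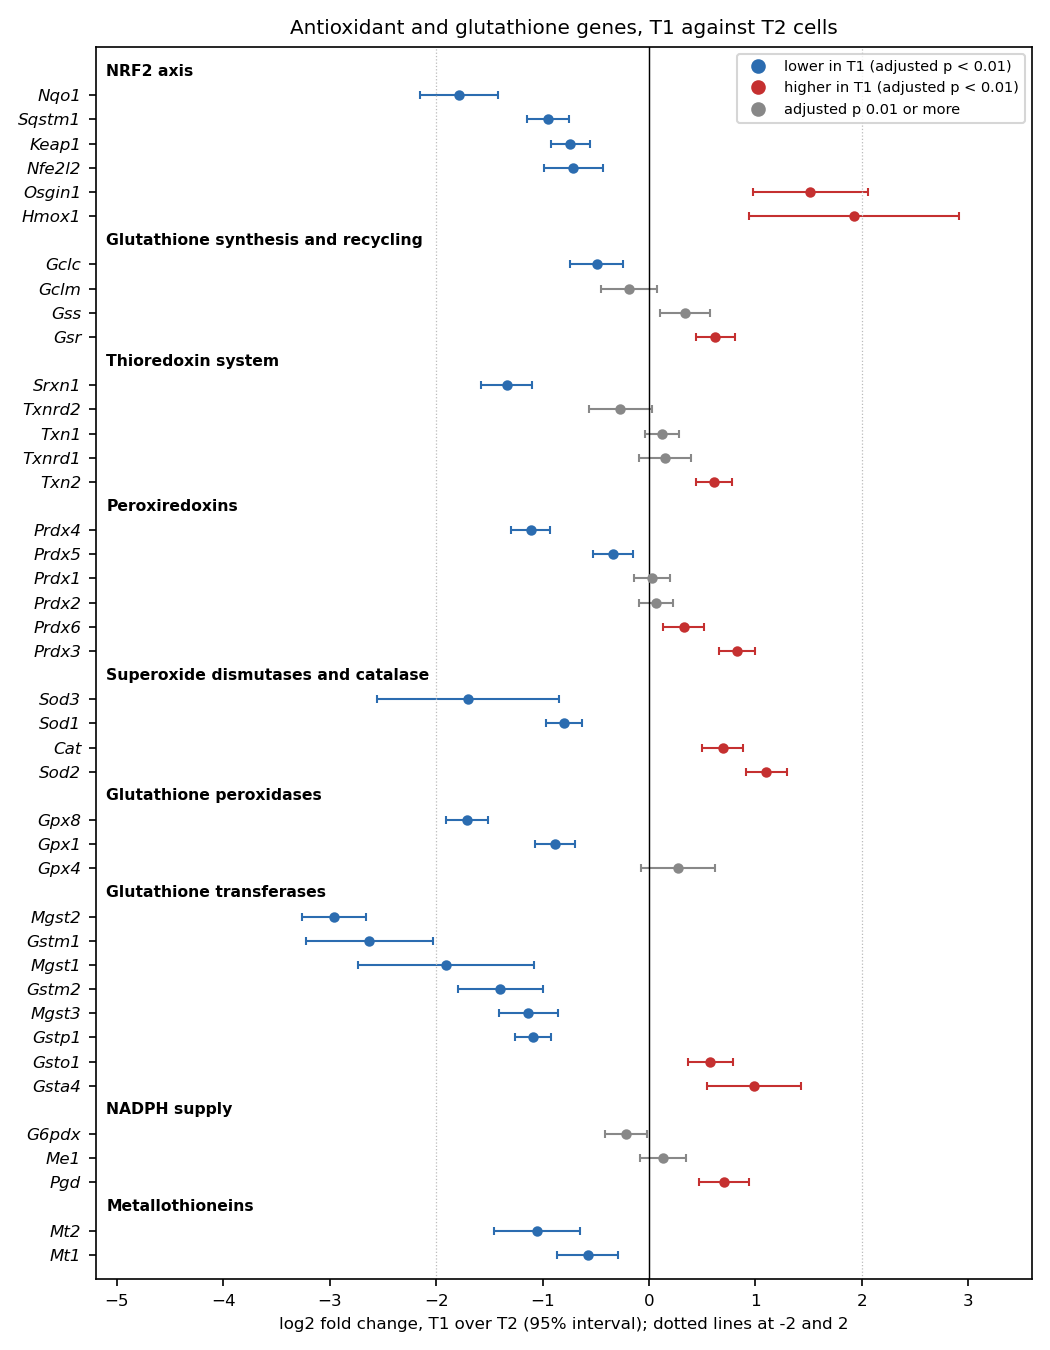
Log2 fold change of the 41 tested antioxidant and glutathione genes, T1 over T2 cells (horizontal axis), grouped by role, with points for the limma estimate, bars for the 95% interval and dotted lines at the study's limit of 2. All 8 listed glutathione transferases differed, from -2.96 for Mgst2 to 0.98 for Gsta4, while Prdx1 and Prdx2 lay close to 0.

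All 6 listed genes of the NRF2 axis differed between T1 and T2 cells, where 49.5% of all genes tested did, but not in one direction. Nfe2l2, Keap1, Sqstm1 and Nqo1 were lower in T1 cells and Hmox1 and Osgin1 were higher. Among genes of this axis outside the list, Bach1, Akr1b8, Cbr1 and Blvrb were lower and Abcc4 was higher. The rest of those tested, such as Nfe2l1, Mafg and Cul3, did not pass. Nfe2l2 itself had 1819, 1642 and 2217 normalised counts in the T1 libraries and 3017, 2730 and 3537 in the T2 libraries, a log2 fold change of -0.71 (SE 0.13, adjusted p = 6.11e-04, limma with Benjamini-Hochberg adjustment). No T1 library reached the lowest T2 library. Keap1, the inhibitor that sends NRF2 to degradation, was lower in T1 cells as well, with a log2 fold change of -0.74 (adjusted p = 2.71e-05). The level of Sqstm1, whose product p62 binds KEAP1 and delivers it to autophagy, averaged 8213 ± 914 normalised counts over the T1 libraries and 15830 ± 828 over the T2 libraries (SD, n = 3 each), or -0.95 as a log2 fold change (adjusted p = 7.78e-06).

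Nqo1 (chr8:107388225-107403206, mm10, minus strand) encodes a quinone reductase that is widely used as a readout of NRF2. It had 288, 196 and 182 normalised counts in T1 libraries and 760, 733 and 769 in T2 libraries. The T2 values lay within a narrow band and T1 replicate 1 was the highest of its group, with no overlap. The log2 fold change was -1.79 (SE 0.16, adjusted p = 6.96e-06, limma with Benjamini-Hochberg adjustment), or 3.40 times as much in T2 cells.

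Hmox1 (chr8:75093621-75100589, plus strand), the heme oxygenase that splits heme into biliverdin, iron and carbon monoxide, went the other way. Its normalised counts were 2095, 1593 and 1516 in T1 libraries and 351, 1123 and 233 in T2 libraries. T2 replicate 2 stood well above the other T2 replicates but below every T1 library. The log2 fold change was 1.93 (SE 0.44, adjusted p = 3.39e-03, limma with Benjamini-Hochberg adjustment). Without T2 replicate 2 it was 2.58 with an adjusted p of 9.02e-06, and the adjusted p passed 0.01 when T1 replicate 1 (0.0141), T2 replicate 1 (0.0203) or T2 replicate 3 (0.016) was left out.

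Osgin1 (chr8:119434124-119446256, plus strand), an oxidative stress response gene linked to growth inhibition, showed the same shape. It had 1007, 997 and 778 normalised counts in T1 libraries and 249, 513 and 260 in T2 libraries, with T2 replicate 2 again the highest T2 library and no overlap. The log2 fold change was 1.52 (SE 0.24, adjusted p = 3.42e-04, limma with Benjamini-Hochberg adjustment), and it lay between 1.33 and 1.85 when any one library was left out.

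**Figure D2:**
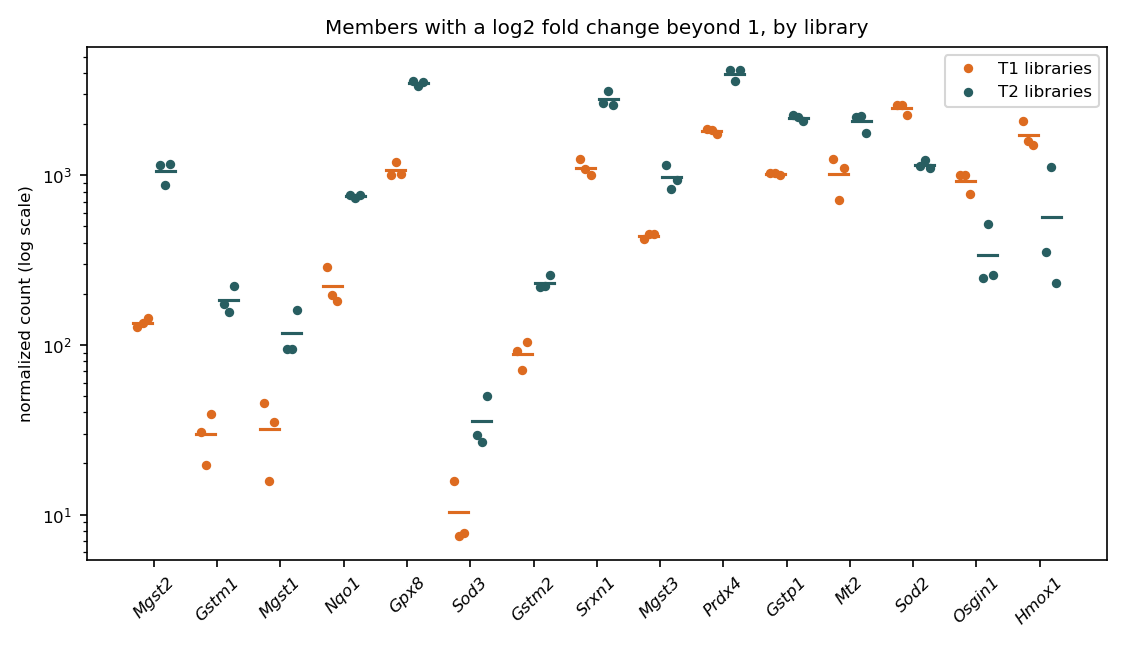
Normalised count in each library (vertical axis, log scale) for the 15 antioxidant genes with an adjusted p under 0.01 and a log2 fold change beyond 1, with T1 and T2 libraries as points and group means as short lines. The T1 and T2 points of each gene do not overlap, and T2 replicate 2 lies apart from its group in Hmox1 and Osgin1.

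NRF2 acts through antioxidant response elements, so the bases before the RefSeq starts of these genes were searched for the core of that element, TGACNNNGC, on both strands. RefSeq windows of 250 bases before the start (build GRCm38.p6) were at hand for 38 of the 44 genes, and Hmox1, Gclc, Gsr, Prdx6, Sod3 and Gsta4 had none. The core was found in 8 of these 38 genes, in 8 of their 47 windows (17.02%), against 10.16% of all 32851 windows. The 8 stretches are shown because they are where the letters of the element stand in these genes, with the core in capitals and up to 25 bases on either side, read 5′ to 3′ on the strand of the gene. They lie at chr2:75704870-75704913 (minus strand, Nfe2l2), chr3:122245398-122245456 (plus, Gclm), chr4:116685441-116685499 (plus, Prdx1), chr6:138140446-138140504 (plus, Mgst1), chr8:94172514-94172572 (plus, Mt2), chr10:82859089-82859147 (plus, Txnrd1), chr16:90220681-90220739 (plus, Sod1) and chrX:74428904-74428962 (minus, G6pdx).
Nfe2l2: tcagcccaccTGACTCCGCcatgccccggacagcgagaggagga
Mgst1: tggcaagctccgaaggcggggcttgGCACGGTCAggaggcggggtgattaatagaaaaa
Mt2: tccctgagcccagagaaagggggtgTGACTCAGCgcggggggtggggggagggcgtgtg
Sod1: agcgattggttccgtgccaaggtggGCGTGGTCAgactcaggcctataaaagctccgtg
Gclm: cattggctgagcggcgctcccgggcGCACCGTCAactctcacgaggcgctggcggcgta
Prdx1: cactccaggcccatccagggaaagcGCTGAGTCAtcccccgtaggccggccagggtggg
Txnrd1: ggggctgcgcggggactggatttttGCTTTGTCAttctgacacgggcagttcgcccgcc
G6pdx: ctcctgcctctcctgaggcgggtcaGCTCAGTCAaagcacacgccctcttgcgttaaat

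The first 4 of these genes, Nfe2l2, Mgst1, Mt2 and Sod1, were lower in T1 cells. The other 4 did not pass the test, with log2 fold changes of -0.19 for Gclm, 0.03 for Prdx1, 0.15 for Txnrd1 and -0.22 for G6pdx. In Prdx1 and Mt2 the core overlaps an AP-1 site, TGANTCA, which was present in 6 of the 47 windows of these genes (12.77%) and in 6.75% of all windows. A window without the letters says nothing about elements farther away, and the starts used by these cells were not measured.

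The glutathione transferases join glutathione to electrophiles, and all 8 of the list differed between the populations, where 49.5% of all genes tested did. Of these 8, 6 were lower in T1 cells by more than 1 on the log2 scale, as were 10.8% of all genes. Gsto1 and Gsta4 were higher. The median log2 fold change of the 8 was -1.27. Of the transferases tested outside the list, Gstm5 and Gstk1 were lower in T1 cells, Gstt3 was higher and Gstz1 did not pass. The microsomal enzyme Mgst2 (chr3:51660360-51682677, plus strand), which can also make leukotriene C4, had 128, 134 and 143 normalised counts in T1 libraries and 1153, 882 and 1160 in T2 libraries. The groups were far apart, with 7.88 times as much in T2 cells and a log2 fold change of -2.96 (SE 0.14, adjusted p = 5.75e-08, limma with Benjamini-Hochberg adjustment). It was the largest difference among the 41 genes.

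Mgst3 (chr1:167371966-167393841, minus strand), another microsomal transferase, had 419, 448 and 450 normalised counts in T1 libraries and 1151, 829 and 939 in T2 libraries. The groups did not overlap, and the log2 fold change was -1.13 (SE 0.13, adjusted p = 2.59e-05, limma with Benjamini-Hochberg adjustment). Mgst1 (chr6:138140316-138156755, plus strand), the transferase of the endoplasmic reticulum and outer mitochondrial membrane, was expressed at a much lower level. Its normalised counts were 45.5, 15.8 and 35.1 in T1 libraries and 94.98, 95.2 and 161 in T2 libraries. With a log2 fold change of -1.91 (SE 0.37, adjusted p = 1.19e-03) it was lower in T1 cells, so that all 3 microsomal transferases moved the same way.

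Gstm1 and Gstm2, cytosolic transferases of the mu class, lie in one cluster on chromosome 3 (chr3:108012255-108017973 and chr3:107981702-107986453, both minus strand). Gstm1 had 30.7, 19.5 and 39.0 normalised counts in T1 libraries and 173, 157 and 223 in T2 libraries, a log2 fold change of -2.63 (SE 0.27, adjusted p = 1.43e-05, limma with Benjamini-Hochberg adjustment). Gstm2 had 92.1, 70.7 and 103 in T1 libraries and 220, 221 and 258 in T2 libraries, a log2 fold change of -1.40 (SE 0.18, adjusted p = 7.53e-05). In both genes T1 replicate 2 was the lowest library and T2 replicate 3 the highest. The annotated transcripts of Gstm1 resemble those of pseudogenes (Gstm1 and Gstm2-ps1 match over 657 bases at 97.869%), so its reads may have been split between copies. Gstm2 matched only the protein-coding gene Gm6665, over 145 bases at 97.931%.

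Gstp1 (chr19:4035407-4037985, minus strand), a transferase of the pi class that is abundant in many carcinomas, had the tightest replicates of the family. Its normalised counts were 1026, 1033 and 1008 in T1 libraries and 2268, 2190 and 2089 in T2 libraries. T1 was lower, at a log2 fold change of -1.09 (SE 0.08, adjusted p = 1.04e-06, limma with Benjamini-Hochberg adjustment), or 2.13 times as much in T2 cells. Its near copy Gstp2, alike at 98.161% over 707 bases, had at most 2.78 normalised counts in any library. A pseudogene, Gstp-ps, matched it at 97.623% over 631 bases and had no counts under its name. Gsta4, which detoxifies the lipid peroxidation product 4-hydroxynonenal, was higher in T1 cells with 848, 612 and 658 normalised counts against 298, 300 and 491. Its log2 fold change was 0.98 (adjusted p = 1.52e-03), with an adjusted p of 0.0101 without T2 replicate 1. Gsto1, an omega class enzyme that reduces rather than conjugates its substrates, was higher by 0.58 on the log2 scale (adjusted p = 3.96e-04).

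The glutathione peroxidases are named for the use of glutathione to reduce peroxides. Of the 3 tested, 2 were lower in T1 cells, as were 24.4% of all genes tested. Gpx8 (chr13:113042753-113046410, minus strand) is a membrane protein of the endoplasmic reticulum. It had 1004, 1201 and 1021 normalised counts in T1 libraries and 3598, 3367 and 3553 in T2 libraries, well apart and with a log2 fold change of -1.71 (SE 0.09, adjusted p = 1.27e-07, limma with Benjamini-Hochberg adjustment). Gpx1, the main cytosolic and mitochondrial glutathione peroxidase, had 4715, 5308 and 4946 normalised counts against 10131, 8513 and 8977. It was 1.85 times as high in T2 cells, with a log2 fold change of -0.88 (SE 0.08, adjusted p = 9.17e-06).

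Gpx4, which reduces lipid hydroperoxides in membranes and protects from ferroptosis, had 311, 296 and 429 normalised counts in T1 libraries and 272, 302 and 272 in T2 libraries. The groups overlapped, and the log2 fold change of 0.27 (95% interval -0.08 to 0.62) did not pass the test (adjusted p = 0.153). A transcribed copy, Gpx4-ps2, matches the transcripts of Gpx4 at 99.738% over 762 bases, so the level given for Gpx4 is uncertain. Summed over the 6 peroxidase genes of the list, T1 libraries had 6416 ± 390 normalised counts and T2 libraries 12999 ± 923 (SD, n = 3 each), most of it Gpx1.

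The 4 listed genes that make and recycle glutathione differed less. Of the genes grouped with them outside the list, Chac1 and Slc3a2 were higher in T1 cells, with log2 fold changes of 1.98 and 1.26. T1 replicate 3 stood above the other T1 libraries in both. Chac1 had 761, 934 and 2209 normalised counts in T1 libraries and Slc3a2 had 6846, 6646 and 9662. Every T1 library was still above every T2 library for both genes. Ggct was lower, with -1.29, and Slc7a11 and Chac2 did not pass the test. Gclc, the catalytic subunit of the rate-limiting glutamate-cysteine ligase, had 1592, 1192 and 1318 normalised counts in T1 libraries and 1890, 2071 and 1778 in T2 libraries. It was lower in T1 cells by a log2 fold change of -0.49 (adjusted p = 3.32e-03, limma with Benjamini-Hochberg adjustment), a call that was lost without T1 replicate 2 (adjusted p = 0.0158), T2 replicate 1 (0.0138) or T2 replicate 2 (0.0163). Its modifier subunit Gclm had a log2 fold change of -0.19 (95% interval -0.45 to 0.07, adjusted p = 0.187), and Gss, which adds glycine in the last step of synthesis, had 0.33 (0.10 to 0.57, adjusted p = 0.0183). Gsr, the reductase that returns oxidised glutathione to its reduced form, was higher in T1 cells. It had 3286, 3048 and 3540 normalised counts against 2135, 2023 and 2245, without overlap, and a log2 fold change of 0.62 (SE 0.08, adjusted p = 8.82e-05).

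In the thioredoxin system, Srxn1 was lower and Txn2 higher in T1 cells, and the other 3 genes did not pass the test. Srxn1 (chr2:152105516-152111376, plus strand), the sulfiredoxin that repairs over-oxidised peroxiredoxins, had 1244, 1086 and 997 normalised counts in T1 libraries and 2668, 3143 and 2597 in T2 libraries. Every T2 library was above every T1 library, by 2.53 times in the means and with a log2 fold change of -1.34 (SE 0.11, adjusted p = 2.53e-06, limma with Benjamini-Hochberg adjustment). Txn2, the mitochondrial thioredoxin, was higher in T1 cells by 0.61 on the log2 scale (adjusted p = 6.02e-05). The cytosolic thioredoxin Txn1 had 15943 to 17763 normalised counts in T1 libraries and 14927 to 15964 in T2 libraries, which overlapped, and a log2 fold change of 0.12 (95% interval -0.04 to 0.28, adjusted p = 0.168). The reductases that recycle the thioredoxins had log2 fold changes of 0.15 for cytosolic Txnrd1 (95% interval -0.10 to 0.40, adjusted p = 0.262) and -0.27 for mitochondrial Txnrd2 (-0.57 to 0.03, adjusted p = 0.102).

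The 6 peroxiredoxins, which reduce peroxides through a reactive cysteine, spread over both directions. Prdx4 (chrX:155323918-155340754, minus strand), the peroxiredoxin of the endoplasmic reticulum, had 1865, 1853 and 1759 normalised counts in T1 libraries and 4145, 3576 and 4154 in T2 libraries. The populations were clearly apart, with a log2 fold change of -1.11 (SE 0.08, adjusted p = 1.52e-06, limma with Benjamini-Hochberg adjustment). Prdx3, the mitochondrial member, was higher in T1 cells instead, with 2731 ± 114 normalised counts against 1540 ± 53.7 (SD, n = 3 each) and a log2 fold change of 0.83 (adjusted p = 6.28e-06).

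Smaller differences were seen for Prdx5, found in several organelles, and Prdx6, which has a single reactive cysteine. Prdx5 was lower in T1 cells by a log2 fold change of -0.34 (adjusted p = 5.49e-03, limma with Benjamini-Hochberg adjustment), and the call was lost without T1 replicate 1 (adjusted p = 0.0276), T2 replicate 1 (0.0296) or T2 replicate 2 (0.0195). Prdx6 was higher by 0.33 (adjusted p = 7.38e-03), and its call held only when T1 replicate 3 was the library left out, the adjusted p being 0.0156 to 0.0341 without each of the others. The cytosolic enzymes Prdx1 and Prdx2 had log2 fold changes of 0.03 (95% interval -0.14 to 0.20, adjusted p = 0.764) and 0.07 (-0.09 to 0.23, adjusted p = 0.436). Both intervals leave out a difference as large as that of Prdx3 or Prdx4.

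The 3 superoxide dismutases and catalase all differed, where 49.5% of all genes tested did. Sod2 (chr17:13006846-13040063, plus strand), the manganese enzyme of mitochondria, had 2594, 2583 and 2270 normalised counts in T1 libraries and 1134, 1228 and 1104 in T2 libraries. T1 values were 2.15 times as high in the means, with no overlap and a log2 fold change of 1.10 (SE 0.09, adjusted p = 2.32e-06, limma with Benjamini-Hochberg adjustment). Sod1, the copper-zinc enzyme of the cytosol, was lower in T1 cells, with 3532 ± 203 normalised counts against 6135 ± 313 (SD, n = 3 each) and a log2 fold change of -0.80 (adjusted p = 8.59e-06). The secreted enzyme Sod3 (chr5:52363791-52371418, plus strand) was barely expressed, with 15, 8 and 8 reads in T1 libraries and 30, 26 and 54 in T2 libraries. These were 15.9, 7.44 and 7.81 normalised counts for T1 and 29.4, 26.6 and 50.1 for T2. The log2 fold change of -1.70 (SE 0.38, adjusted p = 3.07e-03) lost its call without T1 replicate 2 (adjusted p = 0.011), T2 replicate 1 (0.0104) or T2 replicate 3 (0.019). Cat, the catalase of peroxisomes, was higher in T1 cells by 0.69 on the log2 scale (SE 0.09, adjusted p = 7.13e-05), with 1763 ± 55.5 against 1094 ± 97.0 normalised counts.

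Among the genes for NADPH supply, Pgd was higher in T1 cells and the other 2 did not pass the test. Pgd, the second NADPH-producing enzyme of the pentose phosphate pathway, averaged 8321 ± 1002 normalised counts over the T1 libraries and 5088 ± 542 over the T2 libraries (SD, n = 3 each). T1 exceeded T2 by 0.71 on the log2 scale (SE 0.11, adjusted p = 2.04e-04, limma with Benjamini-Hochberg adjustment). G6pdx, which catalyses the first step of that pathway, had a log2 fold change of -0.22 (95% interval -0.41 to -0.02, adjusted p = 0.0529), and malic enzyme Me1 had 0.13 (-0.08 to 0.35, adjusted p = 0.249).

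Both metallothioneins, small cysteine-rich proteins that bind zinc and copper and scavenge oxidants, were lower in T1 cells, as were 24.4% of all genes tested. Mt2 (chr8:94172664-94173568, plus strand) had 1239, 718 and 1099 normalised counts in T1 libraries and 2207, 2246 and 1772 in T2 libraries. T1 was lower, with a log2 fold change of -1.06 (SE 0.18, adjusted p = 5.17e-04, limma with Benjamini-Hochberg adjustment). Its neighbour Mt1 (chr8:94179082-94180327, plus strand) had 2534, 1855 and 2614 normalised counts against 3650, 3606 and 3095, and a log2 fold change of -0.58 (SE 0.13, adjusted p = 2.83e-03). T1 replicate 2 was the lowest library and T2 replicate 3 the lowest of the T2 libraries for both genes. The call for Mt1 was lost without T2 replicate 1 (adjusted p = 0.0168) or T2 replicate 2 (0.0135).

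Levels can be compared between genes only per transcript length. On the scale of mean normalised counts per kb of transcript, Txn1 was the highest of the 44 genes in both populations, with 16044 in T1 cells and 14744 in T2 cells. In T1 cells Gpx1 followed with 6340, then Prdx1 with 6111, Prdx2 with 5740 and Sod1 with 5511. In T2 cells the order behind Txn1 was Gpx1 with 11699, Sod1 with 9570 and Sqstm1 with 7771, ahead of Prdx1 with 5994. Among the tested genes Sod3 was the lowest in both, with 2.78 and 9.46. Mgst2 was 278 per kb in T1 cells and 2191 in T2 cells, and Gstm1 was 28.1 and 174, so that the genes with the largest fold changes were not the most abundant ones.

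**Figure D3:**
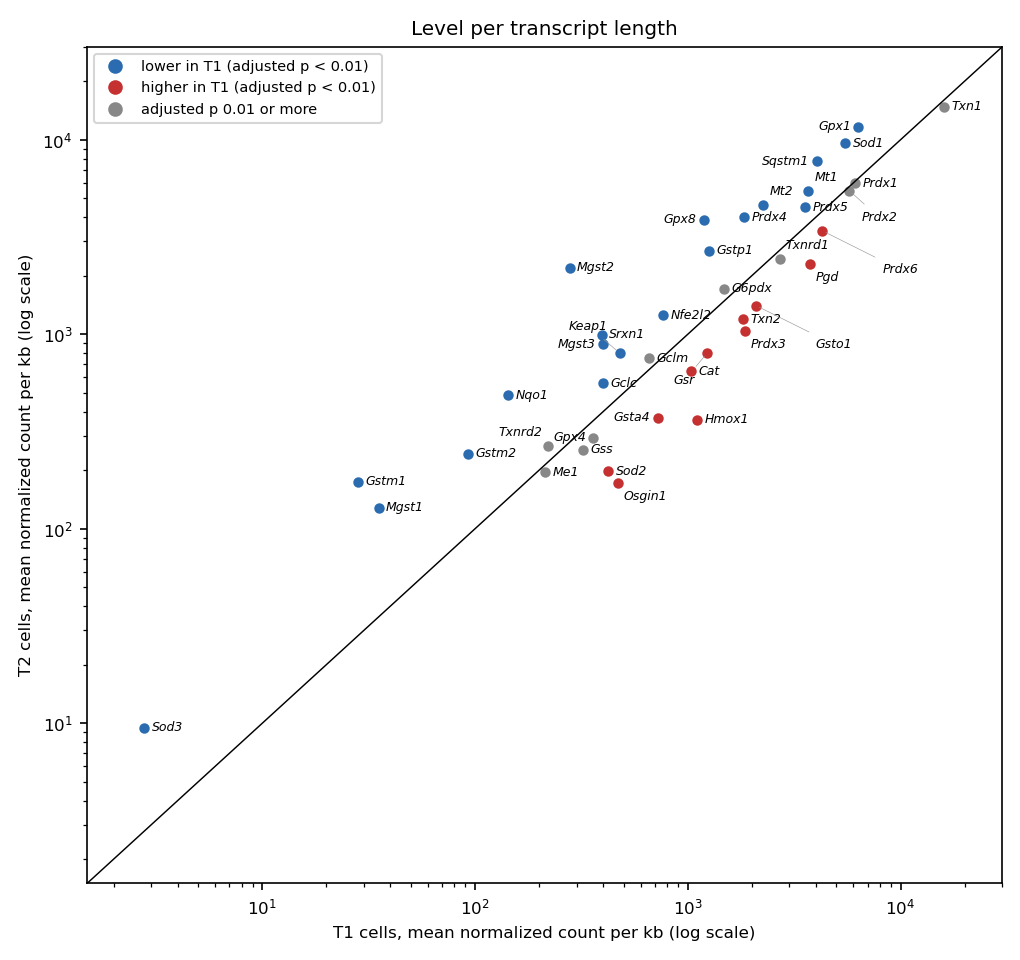
Mean normalised count per kb of transcript in T1 cells (horizontal axis) and T2 cells (vertical axis), both on log scales, 1 point per tested antioxidant gene, with the line of equal levels. Txn1 lies at the top near the line, Gpx1 and Sod1 above it, and Mgst2 and Gstm1 far above it at lower levels.

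Several of these values rest on reads that could belong to an overlapping gene. The strand setting of the read counting is not given in the sources used here. Exons of Sqstm1 share 583 bases with Mrnip, those of Prdx5 share 360 with Trmt112, those of Mt2 share 212 with Gm45774 and those of Keap1 share 209 with Gm16754, all on the other strand. Prdx2 overlaps Junb and Rnaseh2a. Mrnip, Gm45774 and Gm16754 had no counts under those names, so their reads were not analysed here. Pseudogenes also resemble Me1 (Gm7049, 98.427% over 1716 bases), Prdx1 (Gm21399, 98.325% over 597) and Prdx2 (Tdpx-ps1, 96.315% over 597). The same holds for Sod1 (Gm8566, 97.849% over 465 bases) and Txn1 (Txn-ps1, 95.793% over 309). These pseudogenes had no counts under their names either, so the levels of these genes are less certain.

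Another 73 genes of the same pathways, listed by role, were read from the same fit, and 72 of them were in the table. Of the 50 tested, 14 were lower and 12 higher in T1 cells and 24 did not pass the test, so 52% differed, close to the 49.5% of all genes tested (24.4% lower and 25.1% higher). Xdh, Txnip and Gstm5 passed the study's limit of a log2 fold change beyond 2, all lower in T1 cells, and none passed it as higher. Xdh, the xanthine oxidoreductase that can release superoxide and hydrogen peroxide, had 98.4, 33.5 and 182 normalised counts in T1 libraries and 763, 632 and 1099 in T2 libraries, with a log2 fold change of -3.24 (SE 0.48, adjusted p = 1.93e-04, limma with Benjamini-Hochberg adjustment). Txnip, which binds and inhibits thioredoxin, had 49.7, 24.2 and 26.4 against 411, 146 and 399, with a log2 fold change of -3.15 (adjusted p = 6.71e-05). Both genes had groups that did not overlap. Gstm5, a further mu class transferase, had 20.1, 16.7 and 2.93 against 61.7, 50.2 and 77.9 normalised counts and a log2 fold change of -2.48 (adjusted p = 2.90e-03). Its call was lost without T2 replicate 1 (adjusted p = 0.0139) or T2 replicate 3 (0.0191), and without T1 replicate 3 the log2 fold change was -1.71.

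Some genes next to the 44 in their pathways were picked out after their values were seen. The pentose phosphate enzymes downstream of Pgd were higher in T1 cells, with log2 fold changes of 1.11 for Rpia, 0.95 for Tkt and 0.88 for Taldo1 (adjusted p = 4.82e-05, 1.59e-06 and 5.69e-06, limma with Benjamini-Hochberg adjustment). Pgls, which acts between G6pdx and Pgd, had 0.16 (adjusted p = 0.214). Blvrb, biliverdin reductase B, was lower in T1 cells by -1.82 (adjusted p = 1.33e-05), and so was Bach1, a repressor of Hmox1, with -0.87 (adjusted p = 7.23e-05). Blvra, biliverdin reductase A, had -0.39 and did not pass the test (adjusted p = 0.019). The cystine transporter gene Slc7a11 had 242, 212 and 909 normalised counts in T1 libraries and 230, 347 and 316 in T2 libraries, so that its log2 fold change of 0.29 (adjusted p = 0.587) was -0.37 without T1 replicate 3. Mafk, a partner of NRF2 on DNA, had 1510 normalised counts in T2 replicate 2 against 624 and 549 in the other T2 libraries, the same library that stood apart for Hmox1 and Osgin1.

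**Figure D4:**
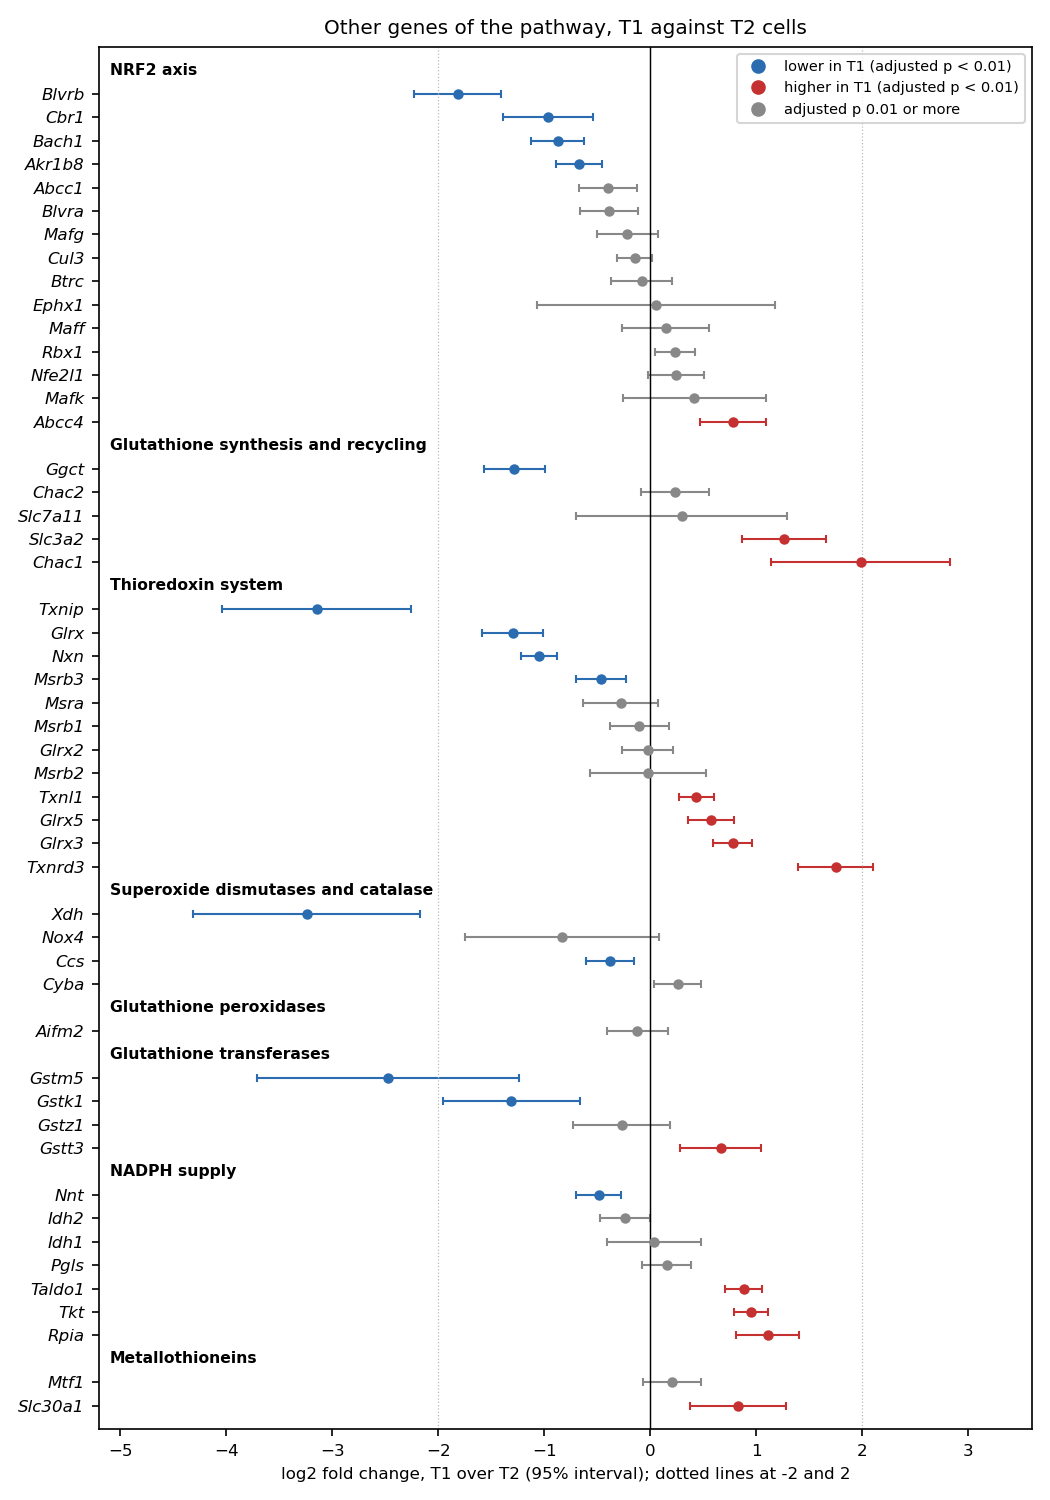
Log2 fold change, T1 over T2 cells (horizontal axis), of the 50 tested genes among the other 73 genes of the pathways, grouped by role, with points for the limma estimate, bars for the 95% interval and dotted lines at the study's limit of 2. Xdh and Txnip lie lowest at -3.24 and -3.15, and Chac1 highest at 1.98.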

How the data were processed

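RNA of 3 T1 and 3 T2 replicates was sequenced from poly(A) libraries. After adapter removal (Trimmomatic) the authors used TopHat2 for alignment to mm10, HTSeq for read counts and DESeq2 for normalisation, and versions, annotation and strand setting are not given in the sources used here. The deposited values are a signal: each read count was scaled by the authors with the size factor of its library. Whole reads could be recovered for 100% of values (tolerance 0.01).

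Genes with a mean of at least 10 normalised counts were compared with limma 3.58.1 (with trend) in R 4.3.3 on log2(normalised count + 1), which understates the change of low genes, with Benjamini-Hochberg adjustment over all genes tested and a threshold of 0.01. On the recovered reads, edgeR 4.0.16 (quasi-likelihood) called 5716 genes and DESeq2 1.42.0 called 6067, against 5701 by limma. The members and lists were chosen with earlier results of these data known. Genes with a log2 fold change beyond 1 are given by library, and other pathway genes beyond 2 are named. Fold changes are T1 over T2. Lengths are the median over GENCODE basic protein-coding transcripts. Motifs were searched in RefSeq windows. Counting limits cover counting error only. The tests were tested on simulated data with fewer changed genes than were called here and a fixed spread. That run does not measure their errors on these data. Names of 27 genes in the table had been turned into dates and are not reported. Alternatives were the pseudocount, the filter, quantile normalisation, no trend, edgeR, DESeq2, a replicate block and each library left out.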

Additional observations from a re-analysis of the deposited data

How the results depend on the processing

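Of the 41 antioxidant genes tested, no call was reversed under any alternative listed here. All 41 calls were as reported under edgeR, under either other pseudocount (0.5 or 5) and without the filter on low counts. Without the variance trend 6 genes lost their call (Hmox1, Gclc, Prdx5, Prdx6, Gsta4 and Mt1), with quantile normalisation Prdx6 did (adjusted p = 0.0145, limma with Benjamini-Hochberg adjustment) and with DESeq2 Hmox1 did (adjusted p = 0.0314). Sod3 could not be fitted with a minimum mean of 50 normalised counts, which removes it. With 1 library left out at a time, 24 of the 31 called genes kept their call in every case. Over those fits 16 to 20 genes were lower and 8 to 11 higher in T1 cells, 10 to 13 were lower and 2 to 4 higher with a log2 fold change beyond 1, and the median log2 fold change ran from -0.35 to -0.19. The study's limit of 2 was passed by 2 to 4 genes. It was 4 without T1 replicate 1 (Mgst1 and Sod3 added), without T1 replicate 3 or without T2 replicate 2 (Mgst1 and Hmox1 added in each), and 3 without T2 replicate 1 (Mgst1 added). The other pathway genes gave 10 to 15 lower and 10 to 12 higher, and all genes tested gave 4656 to 5797.

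Deviations of same-numbered T1 and T2 libraries from their group means correlated by 0.06, 0.17 and 0.10 across genes. Those of differently numbered libraries correlated by -0.15 to 0.07, and T2 replicate 1 correlated best with T1 replicate 3 (0.07). These values do not settle whether the samples were paired. The replicate numbers carry no stated pairing, so the main fit used none. With the replicate number as a block, 20 antioxidant genes were lower and 11 higher, with no call changed, and 5780 genes passed in all. Of the other pathway genes, Abcc1 gained a call under the block (adjusted p = 0.00496) and Ccs lost it (adjusted p = 0.0134). For genes with few reads in T1 cells, such as Gstm1, Mgst1 and Sod3, depth limits the precision of a fold change.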
